A study of Mus musculus with 12 samples.

Results

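The receptors for extracellular nucleotides and adenosine examined here were the products of 10 mouse genes, P2rx4, P2rx7, P2ry2, P2ry6, P2ry12, P2ry13, P2ry14, Adora2a, Adora2b and Adora3. They were matched by gene symbol, and all 10 were found among the 54532 genes of an RNA-seq table. The cells came from the bone marrow of wild-type mice and were grown on CMG, which supplies the growth factor M-CSF, either as bone-marrow-derived macrophages without RANKL or as osteoclasts, the bone-resorbing cells that RANKL produces from them (RANKL at 100 ng/mL per the sample source, given as a range in the protocol). On day 5 each cell type was left untreated or given 100 ng/mL lipopolysaccharide (LPS, the endotoxin of Gram-negative bacteria) for 3 h, which made 4 groups of 3 libraries. The design asks how the cell types differ at rest and how each responds to LPS. Strain, sex, age and whether the libraries of a group came from separate mice or cultures are not given in the sources used here, so the p-values measure only the spread between these libraries, which may be technical. CMG, and with it M-CSF, was common to all 4 groups.

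Cells release ATP, UTP and other nucleotides through channels or on damage, and nearby cells sense them through P2 receptors. P2X receptors are cation channels opened by ATP, whereas P2Y receptors are G-protein-coupled receptors for ATP, ADP, UTP, UDP or UDP-sugars. Enzymes on the cell surface degrade the nucleotides to adenosine, which acts on the G-protein-coupled adenosine receptors. In macrophages these receptors are known for inflammasome activation (P2X7), the engulfing of dying cells (P2Y2, P2Y6) and the damping of inflammation (adenosine receptors), and several of them have been studied in osteoclast formation.

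Levels are given in FPKM (fragments per kilobase of gene length, divided by a depth term for each library). Reads recovered from the FPKM steps came to 14875560 to 19278653 per library, and 9728 to 10301 genes reached 1 FPKM. The summed FPKM was 255852 to 261584 in untreated macrophages and 399796 to 408994 in LPS-treated macrophages, so the depth terms are not proportional to the reads and directions can depend on the scaling. The summed level of 10 osteoclast markers, among them Ctsk and Acp5, was 16.3 to 29.0 FPKM in the macrophage libraries and 29220 to 32220 FPKM in the osteoclast libraries. That of 8 macrophage markers was 2040 to 2511 FPKM in macrophages and 1702 to 1804 FPKM in osteoclasts. The osteoclast markers thus matched the labels of the libraries, whereas the sum of the macrophage markers was only somewhat lower in osteoclasts. From which cells of the osteoclast cultures these transcripts came was not tested. Of the lists for other cells, 6 stromal markers summed to 26.2 to 36.0 FPKM and 8 neutrophil markers to 5.62 to 16.4 FPKM in macrophages, against at most 1.42 and 1.88 FPKM in osteoclasts. Their part in the differences between cell types was not tested. Summed levels of 5 dendritic cell markers (2 of which, Zbtb46 and Xcr1, reached 1 FPKM) were 0.259 to 0.280 FPKM without and 5.26 to 6.07 FPKM with LPS in macrophages, and 0.602 to 0.692 FPKM without and 1.24 to 1.71 FPKM with LPS in osteoclasts. Those of 3 endothelial markers (Cdh5 and Kdr reached 1 FPKM) were 2.50 to 2.88 FPKM without and 4.79 to 4.86 FPKM with LPS in macrophages, and 0.163 to 0.381 FPKM without and 0.773 to 1.54 FPKM with LPS in osteoclasts. Both lists were thus higher with LPS in both cell types without overlap, as some receptor genes were, and their part in the LPS differences was not tested. Summed markers of platelets reached 6.73 FPKM and of B cells 1.14 FPKM, each highest in a macrophage library. Those of mast cells, erythroid cells and T and NK cells stayed at or under 0.443 FPKM, with Cd3d, Cd3g, Ncr1, Fcer1a and Hbb-bs at 0 in all 12 libraries. In these bulk libraries, fewer cells of a type and less RNA per cell cannot be told apart.

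Stretches of promoter sequence up to 250 bases long are shown for 4 of the genes, because P2rx7 and P2rx4 are neighbours on chromosome 5 whose ratio was higher with LPS in both cell types, Adora2b rose in both cell types and P2ry13 was far higher in macrophages. They are from RefSeq (build GRCm38.p6), in which 8 of the 10 genes had an entry, and run 5′ to 3′ on the strand of the gene up to its annotated exons. Capitals mark matches on either strand to a simple kappa-B pattern (GGG, any 5 bases, CC), an AP-1 pattern (TGANTCA) or the core of a PU.1 pattern (GAGGAA). The P2rx7 stretch is chr5:122643677-122643910 and the P2rx4 stretch chr5:122707294-122707543, both on the plus strand. The Adora2b stretch is chr11:62248734-62248983 on the plus strand, and the P2ry13 stretch is chr3:59210883-59211132 on the minus strand.
P2rx7: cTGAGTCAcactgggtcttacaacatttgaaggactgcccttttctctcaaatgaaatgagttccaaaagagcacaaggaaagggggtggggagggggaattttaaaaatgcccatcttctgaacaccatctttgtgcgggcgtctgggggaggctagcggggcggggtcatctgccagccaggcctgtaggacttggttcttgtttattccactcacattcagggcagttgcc
P2rx4: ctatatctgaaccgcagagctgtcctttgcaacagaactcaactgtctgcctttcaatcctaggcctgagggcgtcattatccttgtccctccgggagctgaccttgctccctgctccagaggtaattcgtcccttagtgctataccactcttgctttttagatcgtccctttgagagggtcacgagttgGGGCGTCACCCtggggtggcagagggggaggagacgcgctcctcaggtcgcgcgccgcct
Adora2b: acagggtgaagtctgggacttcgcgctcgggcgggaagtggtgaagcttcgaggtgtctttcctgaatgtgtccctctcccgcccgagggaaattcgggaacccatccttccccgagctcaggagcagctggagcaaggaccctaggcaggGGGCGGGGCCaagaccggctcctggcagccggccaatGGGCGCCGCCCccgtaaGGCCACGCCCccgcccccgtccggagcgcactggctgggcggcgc
P2ry13: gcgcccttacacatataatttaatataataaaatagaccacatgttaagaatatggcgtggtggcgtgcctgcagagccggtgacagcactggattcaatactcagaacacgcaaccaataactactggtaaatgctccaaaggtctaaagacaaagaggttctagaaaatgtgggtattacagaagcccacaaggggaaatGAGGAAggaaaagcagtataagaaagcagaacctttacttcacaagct
The P2rx7 stretch held 1 AP-1 match, which began at position -249 from the RefSeq start site. Beyond the printed stretch, the sequence around the same start site also held a kappa-B match beginning at -15 and a PU.1 core match beginning at 11. The Adora2b stretch held 3 separate runs of kappa-B matches, overlapping matches on opposite strands being counted as 1 run, and the P2rx4 stretch held 1 such run. The 8 receptor genes with an entry had 13 windows of 300 bases, some genes having several start sites. Of the 13, 7 held a kappa-B match, 8 a PU.1 core match and 4 an AP-1 match. Some windows of the same gene overlapped, and these counts were not tested against all windows. Over all 32851 promoter windows of 300 bases, 50.8% held a kappa-B match, 28.3% a PU.1 core match and 7.81% an AP-1 match, so the first of these patterns in particular is common. Matches are letters in a window and were not tested as binding sites. A cyclic AMP response element (TGACGTCA, in 1.79% of windows) and an interferon-stimulated pattern (GAAA, any 2 bases, GAAA, in 3.44% of windows) had no match in the windows of these 4 genes.

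P2ry6 was the most abundant of the 10 genes in both macrophage groups, and P2rx4 was the most abundant in both osteoclast groups. Of the summed FPKM of the 10 genes, P2ry6 took 63.4% ± 0.562 in untreated macrophages, 59.5% ± 0.440 with LPS, 28.7% ± 4.08 in untreated osteoclasts and 8.62% ± 1.57 in LPS-treated osteoclasts (SD, n = 3). P2rx4 took 10.4%, 8.61%, 31.0% and 32.4% in the same order. The sum itself was 165.1 ± 6.29 and 280.8 ± 5.48 FPKM in macrophages without and with LPS, and 16.9 ± 0.926 and 17.7 ± 1.79 FPKM in osteoclasts (SD, n = 3). In untreated osteoclasts the shares of P2rx4 (28.3% to 33.0%) and P2ry6 (25.3% to 33.2%) overlapped, so these neighbours in the order did not differ beyond their spread. The shares do not depend on the depth terms.

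**Figure D1:**
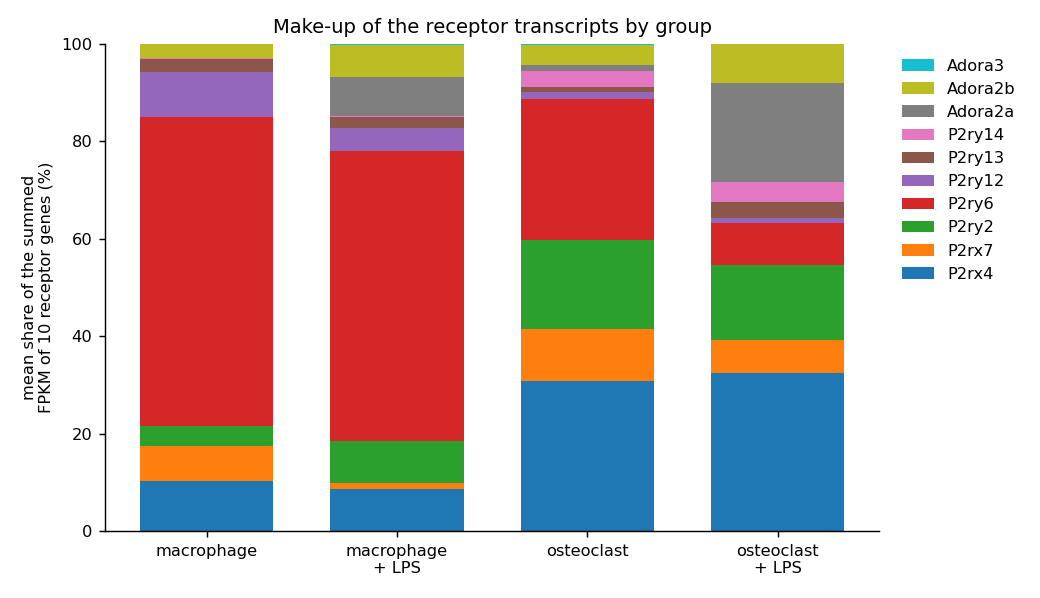
Mean share (% of the summed FPKM of the 10 receptor genes, 3 libraries per group) taken by each gene. P2ry6 goes from 63.4% in untreated macrophages to 8.62% in LPS-treated osteoclasts, where P2rx4 (32.4%) and Adora2a (20.2%) are the larger parts.

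**Figure D2:**
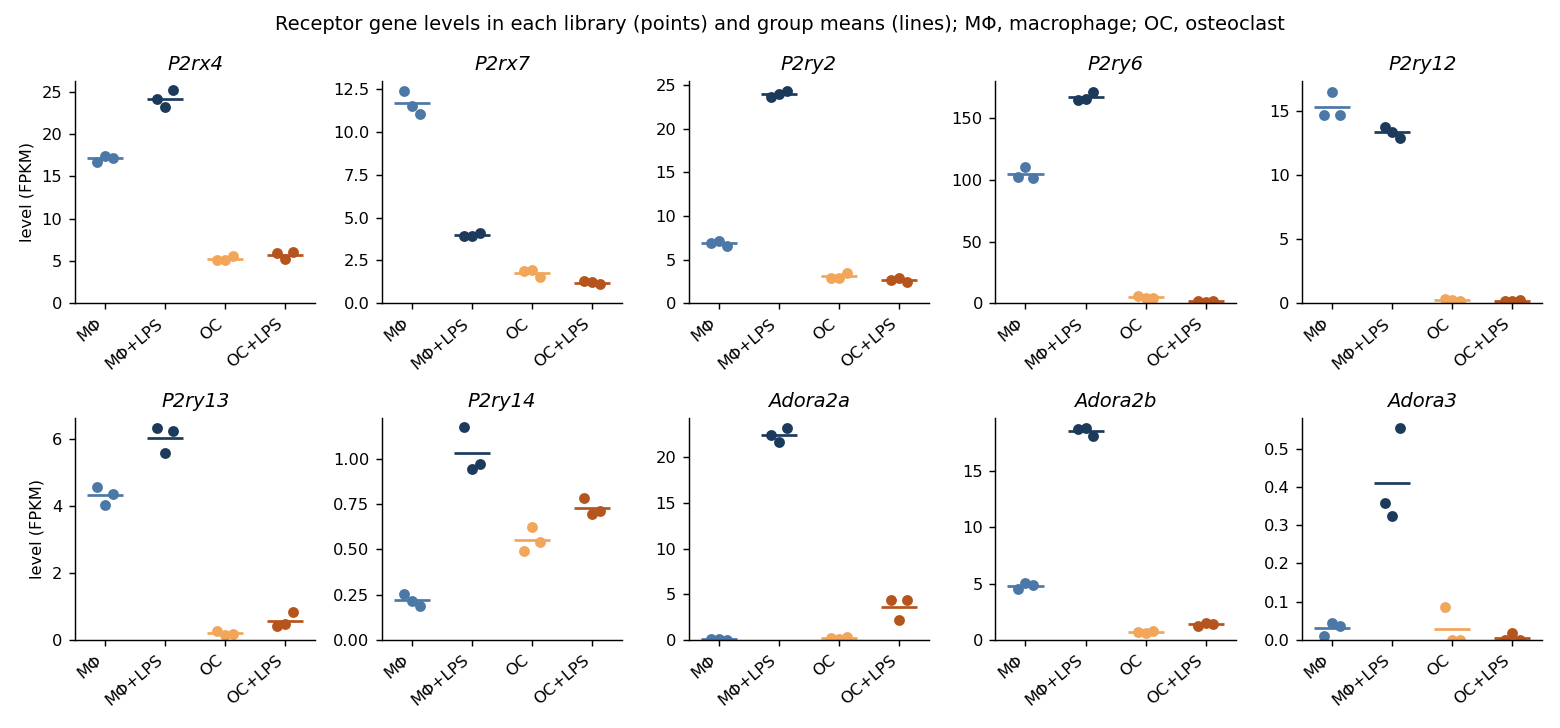
FPKM of each receptor gene in each of the 12 libraries (points) with the group mean (line), each panel with its own linear axis from 0. Untreated macrophages lie above untreated osteoclasts for P2rx4, P2rx7, P2ry2, P2ry6, P2ry12, P2ry13 and Adora2b, and Adora2a is near 0 without LPS.

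Genes were tested with limma on log2(FPKM + 1) and called at a Benjamini-Hochberg adjusted p under 0.05 over the 11335 genes that reached 1 FPKM in 3 or more libraries. P2ry14, with 1 such library, and Adora3, with none, did not pass this filter and are given from a fit of all 25854 genes above 0. P2ry12 and P2ry13 passed through the macrophage libraries alone and Adora2a through the LPS-treated libraries alone, so the counts of called receptor genes are descriptions and support nothing. The same holds for the counts over the pathway lists given further on, where some genes passed through 1 cell type or the LPS-treated libraries alone and are named there. Calls were frequent among all genes. LPS changed 69.9% of the genes tested in macrophages (8 of the 8 receptor genes tested) and 17.7% in osteoclasts (5 of 8). Untreated osteoclasts differed from untreated macrophages in 77.8% (7 of 8), and LPS-treated osteoclasts from LPS-treated macrophages in 83.9% (8 of 8). Each of those 7 and 8 receptor genes was lower in osteoclasts, where 39.0% and 43.0% of the genes tested were called lower. The effect of LPS differed between the cell types, by the interaction term, in 56.6% (6 of 8). Of the calls, 52.6% were above 0 for LPS in macrophages (18.5% after rescaling each library to the same sum, TPM, and 37% after quantile normalization), 62.8% for LPS in osteoclasts (43.5% and 38.5%), 49.9% for untreated osteoclasts against macrophages (29.9% and 51.5%) and 47% for the interaction (82% and 59.9%). The fit of all 25854 genes called 36.1% for LPS in macrophages, 6.35% for LPS in osteoclasts, 42.2% and 46.4% between the cell types without and with LPS, and 26.4% for the interaction. Rescaling to TPM shifted the median over all genes tested from 0.023 to -0.55 for LPS in macrophages, from 0 to -0.38 for untreated osteoclasts against macrophages and from -0.012 to 0.51 for the interaction, as log2 differences. The comparisons share libraries (untreated macrophages enter 3 of them), so they are not independent, and values are set side by side.

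P2rx4 and P2rx7 encode ATP-gated channels, P2X4 with high and P2X7 with low affinity for ATP, and lie 16112 bases apart on the plus strand of chromosome 5 (P2rx7 at chr5:122643911-122691432 and P2rx4 at chr5:122707544-122729738, GRCm38). P2rx7 stood at 12.4, 11.5 and 11.05 FPKM in untreated macrophages and at 3.92, 3.91 and 4.08 FPKM with LPS. In osteoclasts it stood at 1.87, 1.92 and 1.56 FPKM without and 1.28, 1.25 and 1.10 FPKM with LPS. All 4 groups were separate, highest in untreated macrophages and lowest in LPS-treated osteoclasts. LPS lowered P2rx7 2.94-fold in macrophages (log2 difference -1.35, SE 0.065, adjusted p = 2.07e-09) and 1.47-fold in osteoclasts (-0.33, SE 0.065, adjusted p = 0.00365). The 2 effects differed (interaction 1.02, SE 0.091, adjusted p = 1.53e-06), and without LPS the level was 6.54-fold lower in osteoclasts (-2.19, SE 0.065, adjusted p = 1.75e-11). After TPM rescaling the LPS differences were larger, at -2.09 and -0.51, and the interaction was 1.59. A microRNA gene, Mir8115, shares 1.99% of the exon bases of P2rx7.

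P2rx4 stood at 16.7, 17.5 and 17.2 FPKM in untreated macrophages and at 24.1, 23.2 and 25.3 FPKM with LPS. In osteoclasts the values were 5.08, 5.11 and 5.53 FPKM, and 5.89, 5.20 and 6.06 FPKM with LPS. The macrophage groups were separate and the osteoclast groups overlapped. On the deposited scale P2rx4 rose 1.41-fold with LPS in macrophages (log2 difference 0.47, SE 0.056, adjusted p = 9.05e-06), but the direction turned after rescaling to TPM (-0.15, adjusted p = 0.0360) and was not called after quantile normalization (0.075, adjusted p = 0.212). Its recovered reads went from 2689 to 2884 per untreated library to 2163 to 2494 per LPS library. In osteoclasts the LPS difference of 0.11 (SE 0.056) was not called (adjusted p = 0.228), and it was called without the second LPS-treated osteoclast library (0.16, adjusted p = 0.0493). Untreated osteoclasts had 3.27-fold less P2rx4 than untreated macrophages (-1.54, SE 0.056, adjusted p = 1.05e-10).

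The ratio of P2rx4 to P2rx7 within a library is free of the depth terms. It was 1.35, 1.51 and 1.56 in untreated macrophages and 6.15, 5.94 and 6.20 with LPS. In osteoclasts it was 2.71, 2.66 and 3.55 without and 4.61, 4.16 and 5.50 with LPS. The ratio was thus higher with LPS in both cell types with no overlap between the groups, and the change was larger in macrophages. Camkk2, the gene 1432 bases beyond P2rx4, rose with LPS in macrophages (log2 difference 1.08, adjusted p = 6.28e-10) and in osteoclasts (0.38, adjusted p = 1.07e-04).

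**Figure D3:**
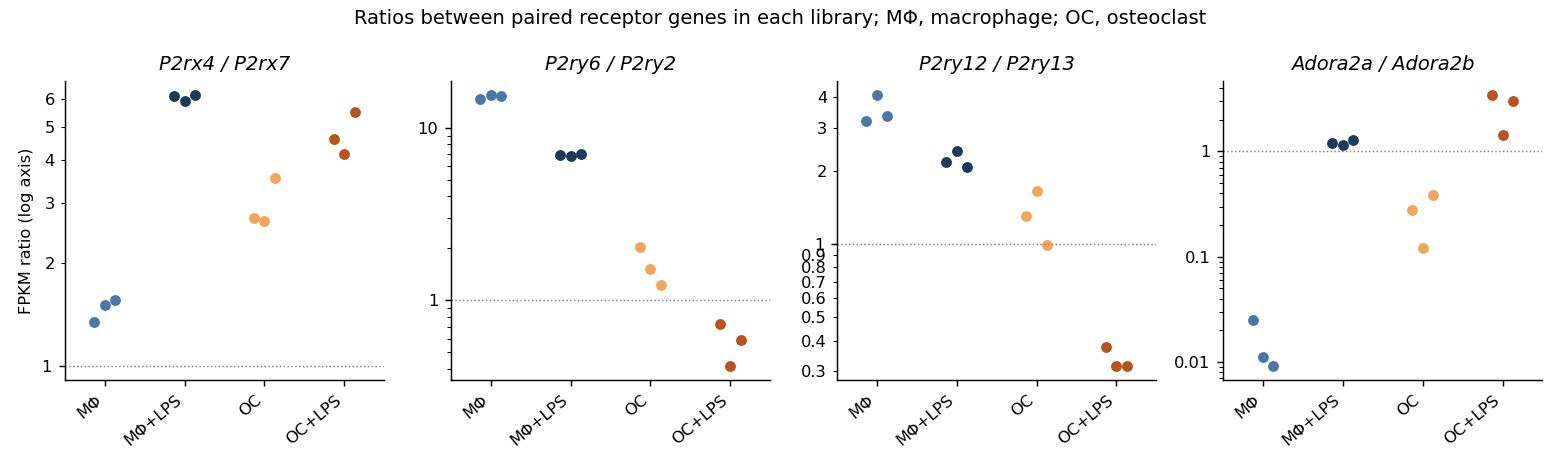
Ratio of the FPKM of 2 related receptor genes in each library (log axis, points are libraries, dotted line at 1). P2rx4 to P2rx7 goes from a mean of 1.47 to 6.09 with LPS in macrophages, and Adora2a to Adora2b from 0.0150 to 1.21.

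P2ry2 (receptor for ATP and UTP) and P2ry6 (receptor for UDP) both signal mainly through Gq and phospholipase C, and are neighbours on the minus strand of chromosome 7, 21919 bases apart (P2ry6 at chr7:100937630-100974649 and P2ry2 at chr7:100996568-101012866). P2ry6 stood at 102.3, 110.3 and 101.5 FPKM in untreated macrophages and at 164.3, 165.2 and 171.5 FPKM with LPS. In osteoclasts it stood at 5.97, 4.47 and 4.24 FPKM without and at 1.96, 1.21 and 1.42 FPKM with LPS. No 2 groups overlapped, and the macrophage groups were higher than the osteoclast groups in every library. P2ry6 was 21.4-fold lower in untreated osteoclasts than in untreated macrophages (log2 difference -4.18, SE 0.11, adjusted p = 8.07e-12) and 109-fold lower when both had LPS (-6.06, SE 0.11, adjusted p = 3.01e-13). In osteoclasts LPS lowered it 3.19-fold (-1.22, SE 0.11, adjusted p = 1.12e-05), on 208 to 318 reads per untreated and 54 to 112 reads per LPS library. In macrophages it rose 1.60-fold on the deposited scale (0.67, SE 0.11, adjusted p = 1.95e-04), with 0.026 (adjusted p = 0.849) after TPM rescaling and the opposite sign after quantile normalization (-0.23, adjusted p = 0.0810). The LPS effects of the cell types differed on each of these scales (interaction -1.89, SE 0.16, adjusted p = 8.91e-07; -2.34 to -1.01 over 21 alternatives, with the smallest size after quantile normalization).

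P2ry2 stood at 6.95, 7.09 and 6.61 FPKM in untreated macrophages and at 23.7, 24.0 and 24.4 FPKM with LPS. In osteoclasts it stood at 2.93, 2.92 and 3.48 FPKM, and at 2.67, 2.92 and 2.40 FPKM with LPS. The LPS-treated macrophages were above every other library and the osteoclast groups overlapped. LPS raised P2ry2 3.49-fold in macrophages (log2 difference 1.67, SE 0.065, adjusted p = 3.10e-10). In osteoclasts the difference was -0.16 (SE 0.065, adjusted p = 0.109), not called, and called after TPM rescaling (-0.26, adjusted p = 0.0425) or without the second LPS-treated library (-0.21, adjusted p = 0.0477). The interaction was -1.83 (SE 0.092, adjusted p = 9.68e-09). Without LPS, osteoclasts had 2.22-fold less P2ry2 than macrophages (-0.94, SE 0.065, adjusted p = 4.26e-08; -1.47 after TPM rescaling).

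The ratio of P2ry6 to P2ry2 was 14.7, 15.6 and 15.4 in untreated macrophages and 6.94, 6.90 and 7.03 with LPS. It was 2.04, 1.53 and 1.22 in untreated osteoclasts and 0.732, 0.415 and 0.593 with LPS. P2ry6 thus exceeded P2ry2 in 9 libraries and was below it in the 3 LPS-treated osteoclast libraries. Fchsd2, 79997 bases beyond P2ry2, rose with LPS in both cell types (2.42, adjusted p = 3.87e-12 in macrophages and 0.84, adjusted p = 7.89e-07 in osteoclasts).

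P2ry12 and P2ry13 (receptors for ADP) and P2ry14 (receptor for UDP-glucose and related sugars) couple to Gi and form a cluster on the minus strand of chromosome 3 inside the gene Med12l, which runs on the opposite strand and had at most 0.0418 FPKM as a group mean. P2ry12 is at chr3:59216272-59262871, P2ry13 at chr3:59207892-59210882 and P2ry14 at chr3:59113855-59153618. P2ry12 stood at 14.7, 16.5 and 14.7 FPKM in untreated macrophages and at 13.8, 13.3 and 12.9 FPKM with LPS. In osteoclasts it stood at 0.362, 0.232 and 0.162 FPKM, and at 0.159, 0.153 and 0.258 FPKM with LPS, which are 6 to 17 reads per library. The osteoclast groups overlapped and lay far under every macrophage library. Untreated osteoclasts had 60.7-fold less P2ry12 than untreated macrophages (log2 difference -3.70, SE 0.071, adjusted p = 5.13e-13), and with LPS the gap was 70.2-fold (-3.59, SE 0.071, adjusted p = 4.61e-13). P2ry12 passed the filter through the macrophage libraries alone, so a difference between the cell types was built into its choice; in the limma fit without the filter these adjusted p were 3.94e-11 and 3.31e-11. The LPS difference in macrophages was a 1.15-fold fall (-0.18, SE 0.071, adjusted p = 0.0368). This call was lost without the second untreated (-0.13, adjusted p = 0.159), the second LPS-treated (-0.18, adjusted p = 0.0737) or the third LPS-treated macrophage library (-0.16, adjusted p = 0.110), as it was without the filter (adjusted p = 0.0697), and adjusted p ran from 3.11e-05 to 0.379 over 22 alternatives. The fall was larger after TPM rescaling (-0.83, adjusted p = 3.11e-05) and after quantile normalization (-0.50, adjusted p = 3.91e-05). In osteoclasts LPS gave -0.071 (SE 0.071, adjusted p = 0.548), not called.

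P2ry13 stood at 4.57, 4.02 and 4.37 FPKM in untreated macrophages and at 6.32, 5.57 and 6.22 FPKM with LPS. In osteoclasts it stood at 0.279, 0.140 and 0.163 FPKM (6 to 13 reads) without and at 0.420, 0.488 and 0.824 FPKM (19 to 38 reads) with LPS. The LPS libraries were above the untreated libraries in each cell type, with no overlap, and both osteoclast groups were under both macrophage groups. In macrophages LPS raised P2ry13 1.40-fold on the deposited scale (log2 difference 0.40, SE 0.095, adjusted p = 0.00232), whereas TPM rescaling turned the sign (-0.16, adjusted p = 0.357) and a pseudocount of 0.1 lost the call (0.47, adjusted p = 0.0695). In osteoclasts it rose 2.97-fold (0.39, SE 0.095, adjusted p = 0.0133), a call that was lost without the second untreated osteoclast library (0.36, adjusted p = 0.0512) or with only the 2 groups in the fit (adjusted p = 0.0611), while the difference grew to 0.72 after TPM rescaling and to 1.19 with a pseudocount of 0.1. Untreated osteoclasts had 22.3-fold less P2ry13 than untreated macrophages (-2.16, SE 0.095, adjusted p = 5.94e-10; -3.51 after TPM rescaling). P2ry13 too passed the filter through the macrophage libraries alone, and in the fit without the filter this adjusted p was 2.00e-08. The ratio of P2ry12 to P2ry13 was 3.21, 4.11 and 3.36 in untreated macrophages, 2.18, 2.40 and 2.07 with LPS, 1.30, 1.66 and 0.993 in untreated osteoclasts and 0.378, 0.314 and 0.314 in LPS-treated osteoclasts. It was thus lower with LPS in both cell types, without overlap.

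P2ry14 was low in every group, at 0.187 to 0.254 FPKM in untreated macrophages, 0.945 to 1.18 FPKM with LPS, 0.490 to 0.621 FPKM in untreated osteoclasts and 0.692 to 0.785 FPKM with LPS. Its long exons (11059 bases) gave 46 to 172 reads per library. In the fit without the filter it rose 4.72-fold with LPS in macrophages (log2 difference 0.74, SE 0.063, adjusted p = 4.54e-06), and the LPS difference in osteoclasts was not called (0.16, SE 0.063, adjusted p = 0.222). It was the one gene of the 10 that was called higher in untreated osteoclasts than in untreated macrophages (2.52-fold, 0.35, SE 0.063, adjusted p = 0.00101). With LPS in both cell types it was lower in osteoclasts (-0.23, SE 0.063, adjusted p = 0.0118), and the interaction was -0.58 (SE 0.089, adjusted p = 6.51e-04). Within the chromosome 3 cluster, P2ry14 was thus higher than in macrophages only in untreated osteoclasts, while P2ry12 and P2ry13 were lower in osteoclasts without and with LPS.

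Adora2a and Adora2b encode adenosine receptors that couple to Gs and raise cyclic AMP, the product of Adora2a with the higher affinity for adenosine. Adora2a (chr10:75316877-75334784, plus strand) was barely present without LPS, at 0.113, 0.0556 and 0.0440 FPKM in untreated macrophages (8, 4 and 3 reads) and at 0.195, 0.0773 and 0.307 FPKM in untreated osteoclasts (11, 4 and 16 reads). With LPS it stood at 22.4, 21.6 and 23.2 FPKM in macrophages and at 4.37, 2.16 and 4.38 FPKM in osteoclasts. The LPS-treated libraries lay far above the untreated ones in both cell types. LPS raised it 316.5-fold in macrophages (log2 difference 4.45, SE 0.17, adjusted p = 2.15e-10) and 18.8-fold in osteoclasts (1.92, SE 0.17, adjusted p = 6.60e-06), and these folds rest on 15 and 31 reads in all in the untreated groups. Adora2a passed the filter through the LPS-treated libraries alone, so an LPS difference was built into its choice; in the fit without the filter the adjusted p were 1.05e-08 and 9.36e-05. With a pseudocount of 0.1 the log2 differences were 7.06 and 3.69. The second LPS-treated osteoclast library was under the other 2, and without it the osteoclast difference was 2.18 (SE 0.080). The LPS effects differed (interaction -2.53, SE 0.24, adjusted p = 2.12e-06), and the difference between the untreated cell types was not called (0.15, SE 0.17, adjusted p = 0.421).

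Adora2b (chr11:62248984-62266453, plus strand) stood at 4.51, 5.03 and 4.84 FPKM in untreated macrophages and at 18.7, 18.8 and 18.05 FPKM with LPS. In osteoclasts it stood at 0.705, 0.642 and 0.797 FPKM (20 to 25 reads) and at 1.26, 1.51 and 1.46 FPKM with LPS (43 to 49 reads). All 4 groups were separate, highest in LPS-treated macrophages. LPS raised Adora2b 3.86-fold in macrophages (log2 difference 1.75, SE 0.059, adjusted p = 7.92e-11) and 1.97-fold in osteoclasts (0.49, SE 0.059, adjusted p = 1.01e-04; 0.89 with a pseudocount of 0.1). The interaction was -1.26 (SE 0.083, adjusted p = 1.03e-07), and without LPS osteoclasts had 6.71-fold less than macrophages (-1.76, SE 0.059, adjusted p = 5.16e-11). After TPM rescaling the interaction shrank to -0.59 (adjusted p = 0.00101) and the difference between untreated cell types grew to -2.67. The ratio of Adora2a to Adora2b was 0.0250, 0.0111 and 0.00908 in untreated macrophages and 1.20, 1.15 and 1.28 with LPS. In osteoclasts it was 0.276, 0.121 and 0.386 without and 3.47, 1.43 and 3.01 with LPS, so Adora2a exceeded Adora2b in the 6 LPS-treated libraries and in none of the untreated ones.

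Adora3 (a Gi-coupled adenosine receptor, chr3:105870858-105908926, plus strand) had 1, 4 and 3 reads in untreated macrophages and 17, 18 and 29 reads with LPS, or 0.357, 0.323 and 0.553 FPKM. In osteoclasts it had 6, 0 and 0 reads without and 0, 1 and 0 reads with LPS. In the fit without the filter the LPS difference in macrophages was 0.45 (SE 0.056, adjusted p = 8.20e-05). LPS-treated osteoclasts were lower than LPS-treated macrophages (-0.49, SE 0.056, adjusted p = 2.80e-05), and the interaction was -0.48 (SE 0.079, adjusted p = 9.78e-04), both resting on the few reads given. It shares 20.9% of its exon bases with Tmigd3 on the same strand, so reads of the 2 genes may be confused.

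**Figure D4:**
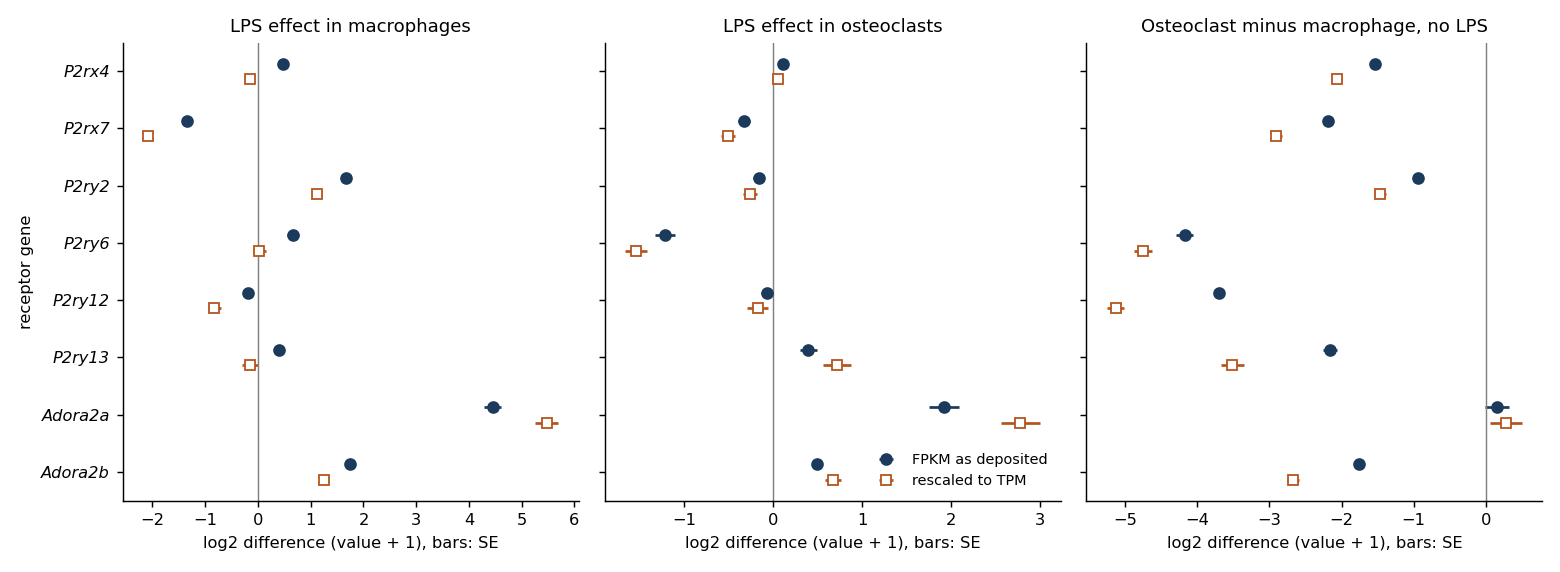
Log2 differences with SE (bars) for the 8 receptor genes that passed the filter, from FPKM as deposited (filled circles) and after rescaling to TPM (open squares). For LPS in macrophages, P2rx4 lies at 0.47 on the first scale and at -0.15 on the second, while Adora2a, Adora2b and P2ry2 are above 0 and P2rx7 is below 0 on both.

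Each receptor gene was also matched with the genes whose log2(FPKM + 1) followed it most closely over the 12 libraries. These Pearson correlations describe 4 groups of 3 libraries and carry no test. Nearest to P2rx7 was Bcl2 (r = 0.997), to P2rx4 Rbl1 (0.999), to P2ry2 Coro2a (0.998), to P2ry6 Cds1 (0.997), to P2ry12 Nt5dc2 (0.999) and to P2ry13 Epb41l2 (0.998). Nearest to Adora2a were Cd69 (0.998), Gbp5 (0.997) and Cd274 (0.997), genes known as induced in activated immune cells. Cd69 had group means of 0.130 and 108.4 FPKM in macrophages without and with LPS, and 0.224 and 7.5 FPKM in osteoclasts. Nearest to Adora2b were Cpd (0.999), Kcna3 (0.998) and Camkk2 (0.998).

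Among 11 further receptors of the family, 9 (P2rx1, P2rx2, P2rx3, P2rx6, P2ry1, P2ry4, P2ry10, Adora1 and Gpr17) did not reach the filter, with P2ry1 the highest at 0.911 FPKM. P2rx5, a P2X subunit, stood at 0.228 ± 0.145 FPKM in untreated macrophages and at 10.0 ± 0.416 FPKM in untreated osteoclasts (SD, n = 3; log2 difference 3.17, SE 0.094, adjusted p = 1.82e-11). P2rx5 passed the filter through the osteoclast libraries alone, so a difference between the cell types was built into its choice. It was 2.90 higher on the same scale when both cell types had LPS (SE 0.094, adjusted p = 2.72e-11). P2ry10b, which is named as a P2Y relative but responds to lysophospholipids, was also higher in untreated osteoclasts (10.3 ± 0.796 against 3.47 ± 0.0843 FPKM, log2 difference 1.33, SE 0.074, adjusted p = 5.40e-09). With LPS, P2ry10b fell in osteoclasts (-0.31, SE 0.074, adjusted p = 0.0133) and rose in macrophages on the deposited scale (0.35, SE 0.074, adjusted p = 0.00121), where TPM rescaling turned the sign (-0.20, adjusted p = 0.0414). With LPS in both cell types P2ry10b was 0.68 higher in osteoclasts (adjusted p = 2.73e-06), and its interaction of -0.65 (adjusted p = 1.97e-04) was not called after TPM rescaling. The osteoclasts thus carried 2 receptors of the wider family at about 10.0 FPKM, above every one of the 10 receptor genes in that group.

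Of 18 genes on a list of nucleotide and adenosine enzymes, 9 passed the filter, and Entpd2, Entpd3, Entpd8, Nt5e, Enpp2, Enpp3, Alpl, Acpp and Dpp4 did not. Not all products of this list act outside the cell, so changes in it are not changes in extracellular breakdown alone. Entpd1 and Enpp1 passed through the macrophage libraries alone, Pnp2 through the LPS-treated libraries alone and Cd38 through the LPS-treated macrophage libraries alone, so their differences along those lines were partly fixed by the filter. In macrophages 6 rose and 1 fell with LPS (5 and 4 after TPM rescaling, 6 and 2 after quantile normalization). Enpp4, a nucleotide pyrophosphatase, rose by 2.95 (adjusted p = 1.25e-11), Pnp, purine nucleoside phosphorylase, by 2.71 (adjusted p = 1.41e-11) and Cd38, an enzyme that consumes NAD, by 1.00 (adjusted p = 4.34e-07). Pnp2, a close copy of Pnp whose reads may be confused with it, rose by 2.40 (adjusted p = 1.21e-08). In osteoclasts 4 rose and 0 fell, namely Pnp (0.89, adjusted p = 4.93e-06), Pnp2 (0.85, adjusted p = 0.00117), Enpp4 (0.79, adjusted p = 2.66e-05) and Cd38 (0.29, adjusted p = 0.0360). Cd38 was low there, at group means of 0.0241 FPKM without and 0.252 FPKM with LPS. In untreated osteoclasts against untreated macrophages 3 were higher and 5 lower (2 and 5 after TPM rescaling). Entpd1 (CD39, which degrades ATP and ADP to AMP) was lower, at 0.462 ± 0.120 against 18.6 ± 1.17 FPKM (SD, n = 3; log2 difference -3.75, SE 0.083, adjusted p = 1.55e-12). Enpp1, which cleaves ATP to AMP and pyrophosphate, was lower by the same test (-2.39, adjusted p = 1.26e-11), as were Pnp (-1.28, adjusted p = 8.61e-09) and Adk, adenosine kinase (-1.23, adjusted p = 2.67e-10). With LPS in both cell types 1 enzyme was higher and 7 were lower in osteoclasts, led by Entpd1 (-3.78), Pnp (-3.10), Pnp2 (-1.54) and Enpp1 (-1.52). The interaction was called above 0 for 1 and below 0 for 5 (3 and 3 after TPM rescaling), with Enpp4 (-2.17), Pnp (-1.81) and Pnp2 (-1.56) below and Enpp1 (0.87) above. Nt5e (CD73, which makes adenosine from AMP) stayed at or under 0.277 FPKM in all 12 libraries.

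Of 14 channels and transporters for ATP and nucleosides, 8 passed the filter, and Panx2, Panx3, Abcc6, Slc29a4, Slc28a1 and Slc28a3 did not. Gja1, Lrrc8a and Slc28a2 passed through the macrophage libraries alone, so their lower levels in osteoclasts were partly fixed by the filter. Gja1 reached 1 FPKM in 1 untreated and 3 LPS-treated macrophage libraries, so the filter also favoured its rise with LPS there. In macrophages 2 rose and 3 fell with LPS (2 and 6 after TPM rescaling, 2 and 5 after quantile normalization). Slc28a2, a concentrative nucleoside carrier, rose by 3.28 (adjusted p = 1.52e-10) and Gja1 (connexin 43) by 2.31 (adjusted p = 8.06e-12). Slc29a2, an equilibrative carrier, fell by 0.76 (adjusted p = 1.53e-04) and Panx1 (pannexin 1, an ATP release channel) by 0.60 (adjusted p = 4.81e-07). In osteoclasts 1 of 8, Gja1, rose (0.24, adjusted p = 0.0165) and 0 fell (2 and 1 after TPM rescaling, 1 and 2 after quantile normalization). Gja1 was low there, at group means of 0.138 FPKM without and 0.344 FPKM with LPS. In untreated osteoclasts against untreated macrophages 2 were higher and 4 lower (1 and 5 after TPM rescaling, 3 and 3 after quantile normalization), with Slc28a2 (-0.78, adjusted p = 6.79e-05) and Gja1 (-0.76, adjusted p = 1.51e-07) lower and Slc29a1 (0.63, adjusted p = 2.09e-08) higher; the fourth by size was Lrrc8a (-0.33, adjusted p = 0.00573). With LPS in both, 4 were higher and 3 lower in osteoclasts, led by Slc28a2 (-3.73), Gja1 (-2.83), Slc29a2 (0.86) and Slc29a1 (0.50). The interaction was called above 0 for 3 and below 0 for 2 (5 and 2 after TPM rescaling, 2 and 2 after quantile normalization), with Slc28a2 (-2.96) and Gja1 (-2.07) below and Slc29a2 (0.71) and Panx1 (0.55) above.

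Of 18 G proteins and effectors below the receptors, 14 passed the filter, and Adcy4, Adcy6, Plcb1 and Pde4d did not. Plcb4 passed through the osteoclast libraries alone and Pde4b through the LPS-treated libraries alone. The higher level of Plcb4 in osteoclasts and the rise of Pde4b with LPS were thus partly fixed by the filter. In macrophages 6 rose and 7 fell with LPS (1 and 11 after TPM rescaling, 4 and 9 after quantile normalization). Pde4b, a phosphodiesterase that removes cyclic AMP, went from 0.636 ± 0.0780 to 34.3 ± 0.4995 FPKM (SD, n = 3; log2 difference 4.43, SE 0.078, adjusted p = 3.85e-13) and in osteoclasts from 0.722 ± 0.0896 to 2.57 ± 0.392 FPKM (1.05, SE 0.078, adjusted p = 1.66e-06). Gna15 and Gna11, alpha subunits of the Gq class, fell in macrophages (-1.21, adjusted p = 1.16e-06, and -0.96, adjusted p = 5.10e-06), as did Adcy9, an adenylyl cyclase (-0.77, adjusted p = 8.82e-06). In osteoclasts 1 rose and 2 fell with LPS (1 and 4 on either other scale), the latter being Adcy7, an adenylyl cyclase (-0.25, adjusted p = 0.00182), and Gnaq, a Gq alpha subunit (-0.16, adjusted p = 0.0166). In untreated osteoclasts against untreated macrophages 4 were higher and 7 lower (3 and 8 after TPM rescaling, 6 and 8 after quantile normalization). Plcb2 (3.28, adjusted p = 2.73e-12), Adcy3 (2.93, adjusted p = 8.13e-13) and Plcb4 (2.01, adjusted p = 7.22e-11) were higher and Gna15 lower (-3.58, adjusted p = 3.32e-11). With LPS in both, 5 were higher and 8 lower in osteoclasts, led by Plcb2 (3.50), Pde4b (-3.31), Adcy3 (3.14) and Gna15 (-2.66). The interaction was called above 0 for 4 and below 0 for 4 (9 and 1 after TPM rescaling, 6 and 3 after quantile normalization), with Pde4b (-3.38) below and Gna15 (0.91), Adcy9 (0.87) and Gna11 (0.82) above.

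All 8 genes of a list of P2X7 partners and downstream genes passed the filter. In macrophages 6 rose and 2 fell with LPS (4 and 4 after TPM rescaling, 5 and 2 after quantile normalization), among them Nlrp3, the inflammasome sensor (2.98, adjusted p = 3.80e-10), Casp1, its protease (2.35, adjusted p = 1.55e-09), and Xkr8, a lipid scramblase (1.58, adjusted p = 1.47e-10). Kcnk6, a potassium channel, fell (-0.96, adjusted p = 2.85e-08). In osteoclasts 3 rose and 1 fell (2 and 1 on either other scale), the rises being those of Nlrp3, Casp1 (0.53, adjusted p = 0.00529) and Xkr8 (0.19, adjusted p = 0.0421). Nlrp3 went from 0.788 ± 0.131 to 17.9 ± 3.65 FPKM there (SD, n = 3; log2 difference 3.39, SE 0.12, adjusted p = 3.28e-09), and from 22.3 ± 2.01 to 182.6 ± 4.69 FPKM in macrophages. Kcnk13, another potassium channel, fell in osteoclasts (-1.15, adjusted p = 3.91e-07). In untreated osteoclasts against untreated macrophages 1 was higher (Xkr8, 1.62, adjusted p = 7.66e-11) and 7 were lower, with Nlrp3 (-3.71, adjusted p = 3.60e-11) and Kcnk13 (-3.27, adjusted p = 1.67e-12) showing the largest gaps of the list, and Pycard, the inflammasome adaptor, also lower (-1.60, adjusted p = 1.57e-10). With LPS in both, 2 were higher and 6 lower in osteoclasts, led by Kcnk13 (-3.50), Nlrp3 (-3.30), Casp1 (-2.37) and Pycard (-2.11). The interaction was called above 0 for 1 and below 0 for 5 (2 and 3 after TPM rescaling, 2 and 4 after quantile normalization), with Casp1 (-1.82), Xkr8 (-1.39) and Ano6, another scramblase (-0.86), below and Kcnk6 (1.00) above. P2rx7 itself was lower with LPS in both cell types, beside the higher Nlrp3 and Casp1.

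**Figure D5:**
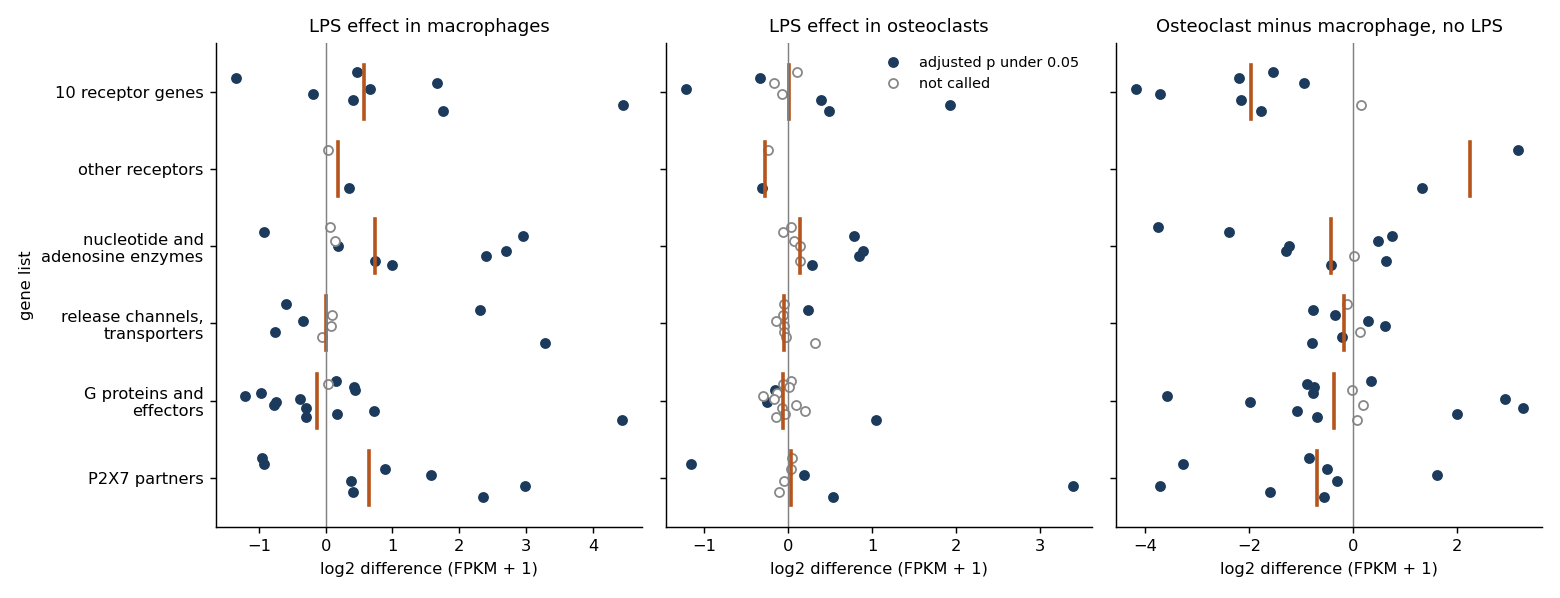
Log2 difference of each gene tested (points, filled where the adjusted p was under 0.05) in the receptor set and the 5 pathway lists, with the list median (bar). In macrophages LPS moved genes of each list in both directions except the 2 other receptors, of which 1 was called, and in untreated osteoclasts both of those lie above 0 while 7 of the 8 receptor genes lie below it with a call.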

How the data were processed

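RNA from 12 samples (4 groups of 3, grouped by the sample titles) was made into libraries with the NEBNext Ultra RNA kit, per the labels' protocols; use of strand in counting is not given in the sources used here. Per the submitters' processing notes, fastp, STAR, featureCounts, DESeq2 and the build mm10 were used, with no versions. The authors deposited FPKM values for 54532 genes, and the depth term behind them is not stated. Dividing by the step of 1 read over GENCODE M21 exon lengths gave whole reads (within 0.02) for 25015 of the 25854 genes above 0 (96.8%), which supplied the read counts quoted.

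Tests used limma 3.58.1 in R 4.3.3 (linear model with a variance trend) on log2(FPKM + 1), 1 fit of 4 group means over all 12 libraries, two-sided, with Benjamini-Hochberg adjustment over 11335 genes. Fold changes are ratios of mean FPKM, while log2 differences carry the pseudocount of 1 and so understate the change of low genes. Tables and figures used Python 3.11.15, pandas 2.3.3, numpy 2.4.6 and matplotlib 3.10.9. The fit was tested on simulated data with few changed genes and no difference between cell types, unlike these data.

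All 10 receptor genes are named; from each pathway list and contrast up to 4 called genes with the largest differences, and those not passing the filter, are named. The members, lists and markers were chosen with earlier results of these data known. Alternatives covered pseudocount, filter, scaling, samples in the fit, replicate block, variance model, library weights and leaving out each library. Libraries with the same replicate number did not deviate together (r from -0.0702 to 0.104 over 18 pairs), so the numbers were not treated as pairs.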

Additional observations from a re-analysis of the deposited data

Results flagged for a closer look

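For 6 of the 8 receptor genes that passed the filter the effect of LPS differed between osteoclasts and macrophages by the interaction term of the limma fit, which is the osteoclast effect minus the macrophage effect on the log2(FPKM + 1) scale; such a call was made for 56.6% of all genes tested. Adora2a gave -2.53 (adjusted p = 2.12e-06), P2ry6 -1.89 (adjusted p = 8.91e-07), P2ry2 -1.83 (adjusted p = 9.68e-09) and Adora2b -1.26 (adjusted p = 1.03e-07), each with the lower LPS effect in osteoclasts. After TPM rescaling Adora2b gave -0.59 (adjusted p = 0.00101), and after quantile normalization P2ry6 gave -1.01 (adjusted p = 1.27e-04). P2ry6 had effects of opposite sign on the deposited scale, 0.67 in macrophages and -1.22 in osteoclasts. P2rx7 gave 1.02 (adjusted p = 1.53e-06), the fall with LPS being smaller in osteoclasts, where the starting level was 1.78 FPKM against 11.7 FPKM in macrophages. P2rx4 gave -0.37 (adjusted p = 0.00169), which became 0.20 (adjusted p = 0.0499) after rescaling to TPM and -0.017 (adjusted p = 0.858) after quantile normalization. In the fit of all genes above 0, where 26.4% were called, the 2 genes that did not pass the filter were also called, P2ry14 at -0.58 (adjusted p = 6.51e-04) and Adora3 at -0.48 (adjusted p = 9.78e-04), the latter on at most 6 reads per osteoclast library.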

How the results depend on the processing

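Values were recomputed for the 8 receptor genes that passed the filter. In tests that left out no single library, 361 kept their direction and their side of the threshold. Against these, 10 reversed, 8 were no longer called and 3 were newly called. Such tests included fits of only the 2 groups compared. As a log2 ratio of mean FPKM, which has no test, 8 stayed within 1 SE, 30 moved and 2 reversed. In fits without 1 library 468 kept both, against 6, 4 and 2. The direction of P2rx7, P2ry2 and Adora2b with LPS in macrophages, and of P2rx4, P2rx7, P2ry2, P2ry6 and Adora2b between untreated cell types, held under every alternative run; P2ry12, P2ry13 and Adora2a are left out here because the filter kept them through 1 side alone.

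Scaling reversed called results. Rescaling to TPM gave -0.15 for P2rx4 and -0.16 for P2ry13 with LPS in macrophages, and 0.20 for the P2rx4 interaction; quantile normalization gave -0.23 for P2ry6 with LPS in macrophages. The interactions of P2ry12 (0.11) and P2ry13 (-0.0083), neither called, changed sign. That of P2ry12 was -0.065 with a pseudocount of 0.1, -0.17 with voom on the recovered reads and -0.21 as a log2 ratio of mean FPKM, but was called at 0.65 (adjusted p = 0.00366) with TPM and at 0.34 (adjusted p = 0.0122) with quantile normalization. That of P2ry13 was 0.71 with the pseudocount of 0.1, 0.87 with TPM (adjusted p = 0.00315; 0.00315 to 0.972 over 20 alternatives), 0.019 with library weights, 1.02 with voom, 1.09 as a ratio of means, and -0.12 to 0.063 without 1 library, with the sign changed in 6 such fits. The cause was not tested.

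Requiring a mean of 5 FPKM left fewer genes to test: 4851 genes were called for LPS in macrophages (7921 otherwise), 5427 for untreated osteoclasts against macrophages (8822), 5694 with LPS (9509) and 4018 for the interaction (6413), and 3 of 6 receptor genes were called for LPS in osteoclasts (5 of 8 otherwise).

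With the replicate number as a block (replicate block), 7 receptor genes were called for LPS in macrophages, 5 for LPS in osteoclasts, 7 and 8 between cell types without and with LPS, and 6 for the interaction; the call lost was P2ry12 with LPS in macrophages (-0.18, adjusted p = 0.0522).

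The planned count tests (edgeR and DESeq2 on recovered reads) were not run, because the deposited unit is FPKM; voom, run on recovered reads with the depth terms of the FPKM values, and the ratio of mean FPKM were chosen after seeing the data. The osteoclast levels of P2ry12, P2ry13, Adora3 and untreated Adora2a rest on at most 38 reads per library.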
